A study of Mus musculus with 61 samples.

Results

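Cxcl10, Ccl1, Xcl1, Ccl3, Ccl4 and Ccl5 are chemokine genes that CD4 T cells transcribe themselves, and they were chosen as the 6 genes of that kind by the gene symbol of their probe sets, out of 12291 genes named on the arrays. Each was read by 1 probe set. The arrays held RNA of cultured CD4 T cells, naive at the start and taken from the C57BL/6 strain, in an arm with the cytokine IL-27 (IL27) and in a control arm (ctrl). HT_MG-430A arrays covered 18 times between 0.5 and 72 h with 26 arrays per arm, doubled in each arm at 8 times and single at 10. A second set of 9 Mouse430A_2 arrays held 1 array per arm at 4, 16 and 48 h, 1 ctrl array at 0 h, and at 48 h 1 array each labelled GFPP and GFPN.

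The label's culture protocol lists an antibody to CD3 at 1 µg/ml, a second antibody written as anti-CD8 at the same dose and IL-27 at 25 ng/ml, and it is attached to ctrl arrays as well, so arms were taken from array titles. Times carry no unit in the labels and are read as hours. GFPP and GFPN are not explained in the sources used here. Whether the arrays of an arm stand for different cultures or mice is not stated there. The p-values therefore reflect spread between arrays and not between known biological replicates. At a single time that is the spread of duplicate arrays, which may be technical. Where times are pooled, it also holds changes between those times.

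Chemokines are small secreted proteins that bind G-protein-coupled receptors on leukocytes and direct their movement. CXCL10, an interferon-inducible ligand of CXCR3, draws activated T cells, and CCL1 is the ligand of CCR8. XCL1, or lymphotactin, binds XCR1 on cross-presenting dendritic cells. CCL3, CCL4 and CCL5 are known as products of activated and effector T cells, CCL5 as one made late after activation.

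Promoter sequence is shown for the 3 chemokine genes called between the arms in a window. RefSeq windows on GRCm38.p6, from 250 bases before to 50 after the transcript start, were at hand for 4 of the 6 genes (Cxcl10, Ccl1, Ccl3 and Xcl1). The 250 bases before the start are printed here, 5′ to 3′ on the gene's strand, for Cxcl10 (chr5:92348890-92349139, minus strand), Ccl1 (chr11:82179813-82180062, minus strand) and Xcl1 (chr1:164935523-164935772, minus strand). Capitals mark matches on either strand to the STAT-binding GAS element, searched as TTCNNNGAA, or the AP-1 site, searched as TGANTCA.
Cxcl10: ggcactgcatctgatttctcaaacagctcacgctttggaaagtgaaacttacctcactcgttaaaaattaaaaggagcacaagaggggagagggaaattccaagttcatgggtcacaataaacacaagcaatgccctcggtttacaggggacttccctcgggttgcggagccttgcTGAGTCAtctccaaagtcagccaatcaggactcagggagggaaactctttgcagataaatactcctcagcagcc
Ccl1: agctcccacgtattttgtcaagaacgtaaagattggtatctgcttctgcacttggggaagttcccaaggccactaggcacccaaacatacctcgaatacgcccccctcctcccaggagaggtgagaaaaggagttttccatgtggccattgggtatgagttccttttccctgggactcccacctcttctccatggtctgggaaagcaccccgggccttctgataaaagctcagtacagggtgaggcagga
Xcl1: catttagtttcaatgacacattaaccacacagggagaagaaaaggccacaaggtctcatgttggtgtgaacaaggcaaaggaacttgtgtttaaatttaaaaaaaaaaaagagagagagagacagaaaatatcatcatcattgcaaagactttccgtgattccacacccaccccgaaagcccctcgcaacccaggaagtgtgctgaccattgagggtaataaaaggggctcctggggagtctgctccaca

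The Cxcl10 window held 1 AP-1 match, TGAGTCA, beginning at base -74 from the transcript start, and no GAS match. Neither of these motifs had a match in the Ccl1, Xcl1 or Ccl3 window. The search for the interferon-stimulated response element and the NF-kappaB site, whose matches are not printed here, did find letters of both in the Cxcl10 window and of the NF-kappaB site in the Ccl1 window. Of 32851 mouse promoter windows of 300 bases, 8.3% held the GAS letters and 7.81% those of AP-1. These matches describe letters and were not tested as binding sites.

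Values are intensities on a linear scale. Differences between the arms, with ctrl subtracted from IL27, were taken after adding 32 to each intensity and converting to log2, so that changes of dim genes come out too small, and a gene was called at a limma adjusted p under 0.05 over all genes tested. The times were pooled into an early window (0.5 to 4 h, 5 arrays per arm), a middle window (8 to 20 h, 9 per arm) and a late window (25 to 72 h, 12 per arm). All 6 genes passed the filter on low values. Late, Cxcl10 lay above the array's own median on 0 of 12 arrays in either arm, and Ccl1 on 0 of 12 with IL27 and 4 of 12 in ctrl. Late Xcl1 did so on 7 of 12 with IL27 and 8 of 12 in ctrl. The arrays' medians lay between 28.0 and 36.6.

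Markers of the labelled cells were present. All 6 named CD4 T cell markers passed the filter, and Cd4 ran from 129 to 769 and Cd3e from 337 to 1188 over the 52 arrays. Cd8a (9.53 to 20.4) was above the array median on 0 of 52 arrays, whereas Cd8b1 (44.3 to 313) was above it on all 52. Among natural killer cell markers 0 of 4 named passed. Of 6 named B cell markers 3 passed. Ighm reached 3468 and was above the median on all 52 arrays, Cd79b reached 120 and was above it on 7, and Ms4a1 reached 106 and was above it on 6. Cd79a was above the median on 1 array, and Cd22 and Pax5 on 0. The ctrl array at 12 h stood apart from the others. Over 7163 genes it correlated at best at 0.871 with another array of its type, where each of the remaining 51 had a partner at 0.977 or more.

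The 6 genes did not all reach their highest intensity at the same time. Cxcl10 was highest at 2 h with IL27 and at 4 h in ctrl, Xcl1 at 8 h in both arms, Ccl1 at 12 h in both, Ccl3 and Ccl4 at 42 h in both, and Ccl5 at 72 h in both. Peak intensity at those times was 1348 with IL27 and 424 in ctrl for Cxcl10, 732 and 2439 for Xcl1, 122 and 839 for Ccl1, 2295 and 3177 for Ccl3, 2205 and 2278 for Ccl4, and 513 and 495 for Ccl5. The ctrl peak of Ccl1 is the 12 h array that stood apart, and its next highest ctrl time was 8 h, with 220. Ccl4 had a second high at 8 h, with 2146 against 2205 at 42 h with IL27 and 1816 against 2278 in ctrl. In both arms the order of those times is within the spread of duplicate arrays, whose SD for Ccl4 was 0.46 on the log2 scale (16 pairs).

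**Figure D1:**
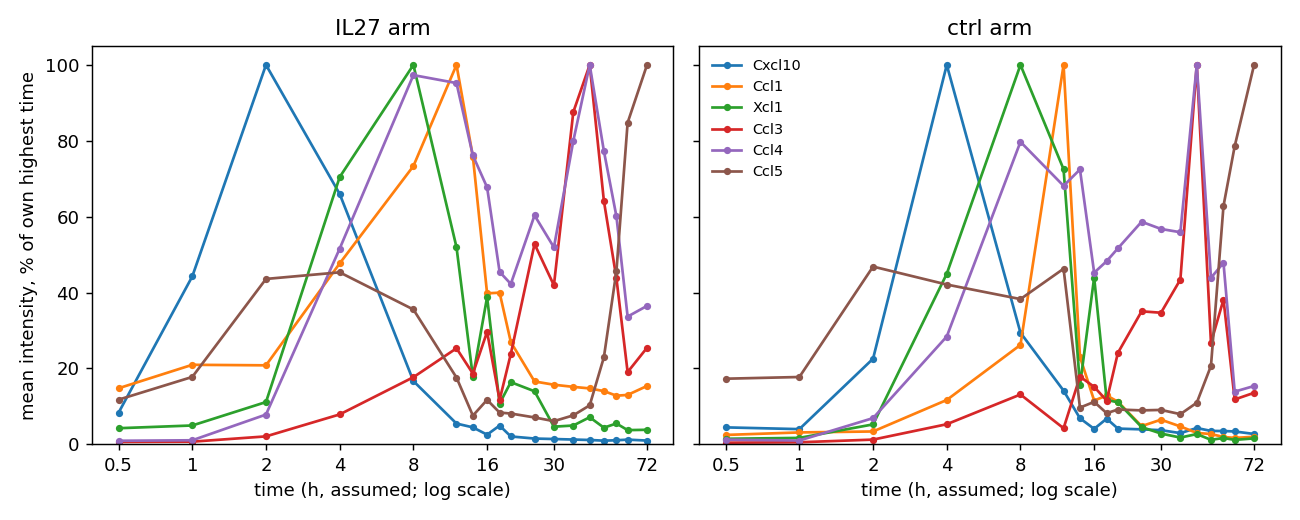
Mean intensity of each gene at each time as a percent of its own highest time, in the IL27 arm (left) and the ctrl arm (right), against time in hours on a log scale. Cxcl10 comes first, at 2 h with IL27 and 4 h in ctrl, then Xcl1 at 8 h, Ccl1 at 12 h, Ccl3 and Ccl4 at 42 h and Ccl5 at 72 h. The ctrl peak of Ccl1 is the 12 h array that stood apart, and Ccl4 had a second high at 8 h.

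Cxcl10 was higher with IL27 in the early window. With IL27 its intensity was 112 at 0.5 h, 596 at 1 h, 1184 and 1511 on the 2 arrays at 2 h, and 889 at 4 h. In ctrl it was 18.9 at 0.5 h, 16.9 at 1 h, 42.3 and 149 at 2 h, and 424 at 4 h. Every IL27 array of the window lay above the ctrl arrays of its own time, and the arms overlap only across times. How many of all genes did so was not counted. The window means were 859 ± 538 with IL27 and 130 ± 173 in ctrl (SD, n = 5 each, spanning the course), a log2 difference of 2.66 ± 0.24 (SE, limma adjusted p = 3.4e-09). Of the 6 chemokine genes, 1 was called in the early window, against 2.32% of the 7163 genes tested.

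At single times, Cxcl10 was 35.3 times as bright with IL27 as in ctrl at 1 h and 14.1 times at 2 h, and both passed (3.68 ± 0.41 at 1 h and 3.56 ± 0.29 at 2 h, limma adjusted p = 2.9e-05 and 2.1e-08). Over the 17 times other than 12 h, 1.91% of all single-time tests were called. The ratio of the means was 2.10 at 4 h and 1.80 at 8 h, where the difference did not pass. The highest time was 4 h in ctrl, after that of the IL27 arm at 2 h. At 0.5 h, with 1 array per arm, IL27 was already 5.95 times ctrl, a difference of 1.50 ± 0.41 that was not called (adjusted p = 1.00 over a time at which 0 of 7163 genes were called).

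In the middle window Cxcl10 with IL27 ran from 26.4 through a median of 59.9 to 325, and in ctrl from 16.2 through 28.6 to 137 (9 arrays each). It was the brighter in the IL27 arm at 6 of 6 times of the window, but the difference of 0.45 ± 0.18 was not called (limma adjusted p = 0.10, 95% interval 0.08 to 0.82). It was called with a pseudocount of 1 (0.78, adjusted p = 0.024), and the range of adjusted p over 28 alternatives was 0.024 to 0.38. Late, all arrays of both arms were dim, at 11.9 to 20.2 with IL27 and 10.2 to 18.9 in ctrl, with a difference of 0.02 ± 0.16 (adjusted p = 0.95, 95% interval -0.29 to 0.34). These levels lie under the array median, so a difference between the arms could not be measured there.

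Within the IL27 arm, Cxcl10 fell by 2.82 ± 0.39 between the early and the middle window and by 1.04 ± 0.31 between the middle and the late one, both called (limma adjusted p = 8.8e-07 and 0.0061). Within ctrl the same steps were -0.60 ± 0.37 and -0.61 ± 0.29, and neither passed (adjusted p = 0.15 and 0.084). The late difference between the arms minus the early one was -2.64 ± 0.29 (limma adjusted p = 9.0e-08), where 7.09% of all genes were called. As Cxcl10 was under the array median on every late array, this contrast restates the early difference and does not measure a late one. Summed myeloid and dendritic cell markers, as other possible sources of Cxcl10, were 261 to 516 in early IL27 arrays and 247 to 433 in early ctrl arrays, where 5 of 10 passed the filter. Itgam, Itgax, Cd14 and Adgre1 were above the median on 0 of 52 arrays. Those that passed were Batf3, Lyz2, Cd68, Mpeg1 and Fcer1g, which reached 342, 255, 172, 63.3 and 57.0 and were not called in the early window. Batf3 was above the median on 40 of 52 arrays. Of the CD4 T cell markers, Cd4 was called lower with IL27 early (-0.41, limma adjusted p = 0.026). The part of these markers in the result was not tested. In bulk RNA of this kind, fewer cells of a type and less RNA per cell cannot be told apart.

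**Figure D2:**
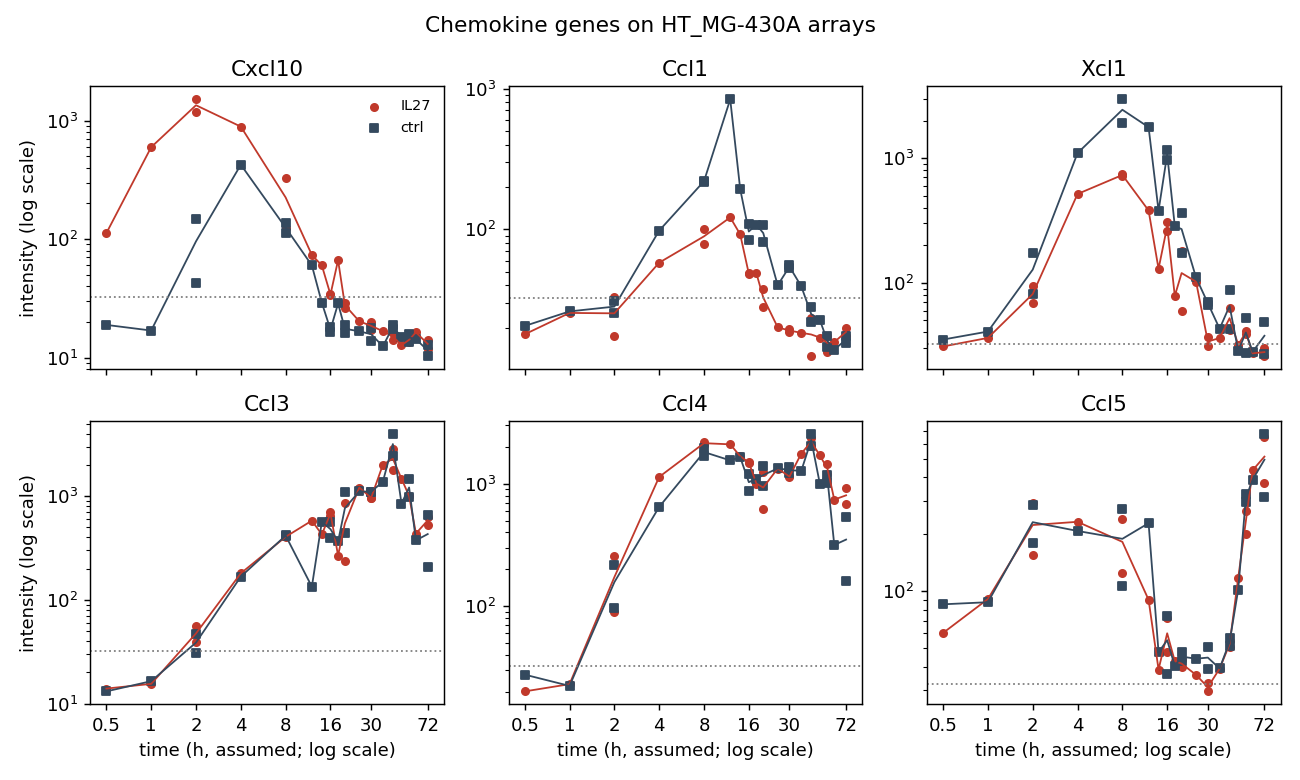
Intensity of each gene on every HT_MG-430A array (log scale) against time in hours (log scale), IL27 in red circles and ctrl in dark squares, with lines through the mean of each time and a dotted line at the median of the array medians. Cxcl10 is higher with IL27 at 0.5 to 4 h, Ccl1 and Xcl1 are lower with IL27 at 8 to 20 h, and the arms of Ccl3, Ccl4 and Ccl5 run together over most of the course.

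Ccl1 and Xcl1 were lower with IL27 in the middle window. Ccl1 ran from 28.1 through a median of 48.8 to 122 with IL27 and from 81.0 through 109 to 839 in ctrl (9 arrays each), a difference of -1.06 ± 0.12 (limma adjusted p = 4.1e-08). Xcl1 ran from 59.8 through 260 to 746 with IL27 and from 174 through 973 to 2955 in ctrl, a difference of -1.56 ± 0.15 (adjusted p = 1.7e-09). The ctrl mean was 3.25 times the IL27 mean for Ccl1 and 3.50 times for Xcl1, and without the 12 h ctrl array 2.09 and 3.24 times. Of the 6 chemokine genes 2 were called lower and 0 higher, where 10.7% of all genes were called, 345 higher and 419 lower. Without the 12 h ctrl array the differences were -0.88 for Ccl1 and -1.48 for Xcl1, and both were still called.

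The Xcl1 intensities were 515 with IL27 and 1096 in ctrl at 4 h, and 746 and 717 with IL27 against 2955 and 1923 in ctrl at 8 h. At 16 h they were 260 and 307 with IL27 and 1171 and 973 in ctrl. The arms did not overlap at either duplicated time. Of all 8 duplicated times, Xcl1 had both IL27 arrays below both ctrl arrays at 3. Genes not called in a window also separated at some of the 8. Ccl4 had IL27 above at 4 and below at 1, Ccl3 above at 1 and below at 2, and Ccl5 below at 2. The share over all genes was not counted. The single-time Xcl1 differences of -1.66 ± 0.34 at 8 h and -1.80 ± 0.34 at 16 h were called (limma adjusted p = 0.039 and 0.0041), as was -2.13 ± 0.49 at 12 h. At 12 h, where 1 of the arrays compared is the one that stood apart, 43.9% of all genes were called.

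Duplicate arrays lay closer together for Ccl1, with an SD of 0.14 on the log2 scale against 0.39 for Xcl1 (16 pairs each). At 8 h it read 100 and 78.0 with IL27 and 222 and 217 in ctrl. At 20 h it read 28.1 and 37.4 with IL27 and 81.0 and 107 in ctrl, and at 30 h 18.7 and 19.4 with IL27 and 52.9 and 55.7 in ctrl. Differences at 8, 16, 20 and 30 h were called (-1.06, -0.67, -0.96 and -0.76), and at these 4 duplicated times the IL27 arrays were all below the ctrl arrays. How many of all genes separated in this way was not counted. The difference at 12 h (-2.50 ± 0.20) was also called and rests on the ctrl array that stood apart.

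Both genes rose and fell again in both arms. Between the early and middle windows Ccl1 rose by 0.64 ± 0.17 in the IL27 arm and by 1.54 ± 0.33 in ctrl, and Xcl1 by 1.13 ± 0.46 in the IL27 arm and by 2.26 ± 0.57 in ctrl, all 4 called, with the difference between the 2 steps of a gene not tested (limma adjusted p = 0.0017, 0.00021, 0.030 and 0.0011). The Xcl1 call in the IL27 arm was lost without any of 0.5, 1, 2, 8 or 16 h, or without the arrays whose title ends in d (estimates 0.71 to 1.10, adjusted p = 0.062 to 0.13). Between the middle and late windows both fell again, with steps of -0.93 ± 0.13 in the IL27 arm and -1.75 ± 0.26 in ctrl for Ccl1, and of -1.92 ± 0.36 in the IL27 arm and -3.30 ± 0.45 in ctrl for Xcl1. These within-arm steps were common among all genes: 68.5% were called for middle minus early in the IL27 arm and 64.9% in ctrl, and 59.9% and 48.1% for late minus middle.

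Early and late, neither gene was called. In the early window Ccl1 differed by -0.16 ± 0.16 and Xcl1 by -0.42 ± 0.20 (limma adjusted p = 0.84 and 0.42), with IL27 lower at 4 of 4 times for both. In the late window Ccl1 differed by -0.24 ± 0.10 and Xcl1 by -0.18 ± 0.13 (adjusted p = 0.10 and 0.39), where 18.5% of all genes were called and 0 of the 6 chemokine genes. Ccl1 passed late when the 12 h ctrl array was left out, at the same size of -0.24 (adjusted p = 0.013). From 42 h on, Ccl1 lay between 12.5 and 23.3 with IL27 and between 14.0 and 28.1 in ctrl (8 arrays each).

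On the scale tested, the difference between the arms was smaller in the late than in the middle window for both genes. A test of the change itself, late minus middle, gave 0.82 ± 0.16 for Ccl1 and 1.38 ± 0.20 for Xcl1 (limma adjusted p = 0.00059 and 1.0e-05). Of all genes 8.11% were called. Without the 12 h ctrl array the changes were 0.64 and 1.31, both still called. Late Ccl1 was above the array median on 0 of 12 arrays with IL27, and changes of dim values come out too small. Its ratio of ctrl to IL27 means was 1.99, 2.85 and 2.14 at 25, 30 and 36 h. At the middle times it was 2.00 to 2.87, apart from 6.90 at 12 h. At 42 to 72 h it was 0.88 to 1.40, with both arms under the median. Whether an effect of IL27 on Ccl1 was lost was not tested. Cd8b1, a CD8 T cell marker, was lower with IL27 in the middle window (-0.58, called), as Ccl1 and Xcl1 were. Unlike theirs, its difference was not smaller late (-0.62, called). Summed CD8 markers ran from 55.6 to 136 with IL27 and from 100 to 158 in ctrl in the middle window. Other markers were also called in the middle window. The B cell gene Ighm (-0.65), Cd4 (-0.52) and Cd3g (-0.36) were lower with IL27. Cd2 (1.17) and the myeloid marker Mpeg1 (0.18) were higher. In the late window Cd4 (-0.30) and Mpeg1 (-0.14) were also called lower, and Batf3 (0.51) and Cd5 (0.47) higher. Cd8a, the defining CD8 marker, was above the median on 0 of 52 arrays. Summed natural killer cell markers in the middle window were 43.4 to 51.4 with IL27 and 45.1 to 61.2 in ctrl, with 0 of 4 passing the filter. Their part in the results was not tested.

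**Figure D3:**
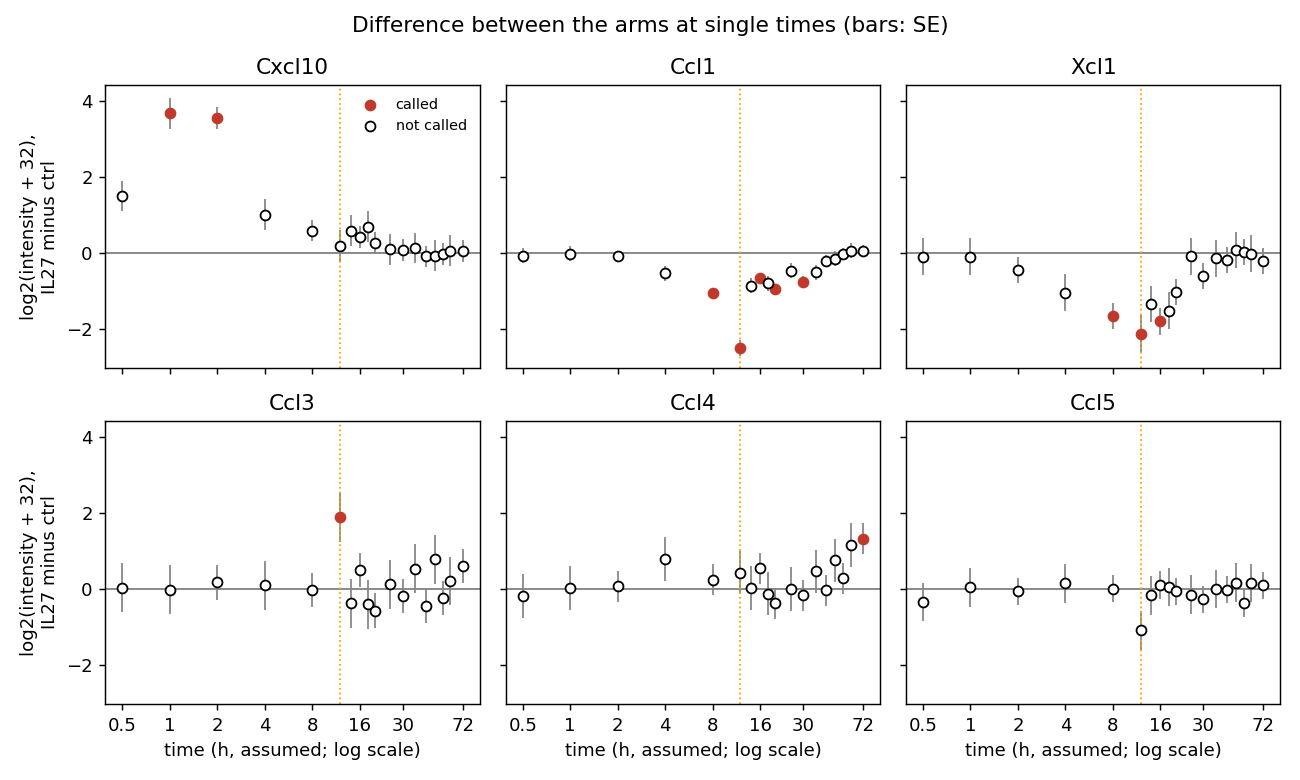
Difference between the arms at each of the 18 times, as IL27 minus ctrl in log2(intensity + 32) units (bars: SE), filled where called, with a dotted line at 12 h. Cxcl10 is called at 1 and 2 h, Ccl1 at 8, 12, 16, 20 and 30 h, Xcl1 at 8, 12 and 16 h, Ccl3 at 12 h, Ccl4 at 72 h and Ccl5 at no time.

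Ccl3 and Ccl4, which encode MIP-1alpha and MIP-1beta, rose in both arms and were not called between the arms in any window of the planned fit. Both started under the array medians: at 0.5 and 1 h Ccl3 was between 14.0 and 15.5 with IL27 and between 13.1 and 16.5 in ctrl, and Ccl4 between 20.1 and 23.02 with IL27 and between 22.3 and 27.5 in ctrl. By 8 h Ccl4 read 2208 and 2083 with IL27 and 1684 and 1948 in ctrl, whereas Ccl3 read 410 and 401 with IL27 and 410 and 423 in ctrl. At 8 h Ccl3 was at 17.7% of its own peak with IL27 and at 13.1% in ctrl.

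From the early to the middle window, Ccl3 rose by 2.68 ± 0.39 in the IL27 arm and by 2.67 ± 0.48 in ctrl, and Ccl4 by 3.18 ± 0.49 in the IL27 arm and by 3.20 ± 0.52 in ctrl (all 4 called, highest limma adjusted p = 2.6e-05). From the middle to the late window Ccl3 rose further, by 1.16 ± 0.31 in the IL27 arm and by 1.16 ± 0.38 in ctrl (adjusted p = 0.0024 and 0.014). The ctrl step was lost without the arrays whose title ends in d (0.98, adjusted p = 0.13). The steps of Ccl4 were -0.17 ± 0.39 in the IL27 arm and -0.47 ± 0.41 in ctrl, neither called.

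Between the arms, Ccl3 averaged 61.0, 504 and 1235 with IL27 and 54.9, 488 and 1297 in ctrl in the early, middle and late windows. Its differences were 0.09 ± 0.30, 0.09 ± 0.22 and 0.09 ± 0.19 (limma adjusted p = 1.00, 0.83 and 0.82), with 95% intervals of -0.52 to 0.69, -0.36 to 0.55 and -0.30 to 0.48. At 12 h alone Ccl3 read 580 with IL27 and 134 in ctrl and was called (1.88 ± 0.64, adjusted p = 0.022), on the ctrl array that stood apart.

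Ccl4 averaged 305, 1547 and 1375 with IL27 and 202, 1372 and 1162 in ctrl, with differences of 0.15 ± 0.26, 0.12 ± 0.19 and 0.43 ± 0.17 (limma adjusted p = 0.95, 0.73 and 0.075). The late interval ran from 0.08 to 0.77, and the late difference was called under 2 of 29 alternatives (adjusted p = 0.038 to 0.38 over all of them). These were the fit with time and title suffix as a replicate block (26 pairs, limma adjusted p = 0.043) and the fit without 30 h. At the end of the course Ccl4 read 742 at 60 h and 927 and 681 at 72 h with IL27, and 316 at 60 h and 161 and 538 at 72 h in ctrl, so all 3 IL27 arrays lay above all 3 ctrl arrays. How many of all genes separated in this way was not counted. The difference at 72 h was called (1.32 ± 0.40, limma adjusted p = 0.036) at a time when 12.4% of all genes were called, the most of any time but 12 h. At 60 h it was 1.15 ± 0.57 and not called (adjusted p = 0.52).

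**Figure D4:**
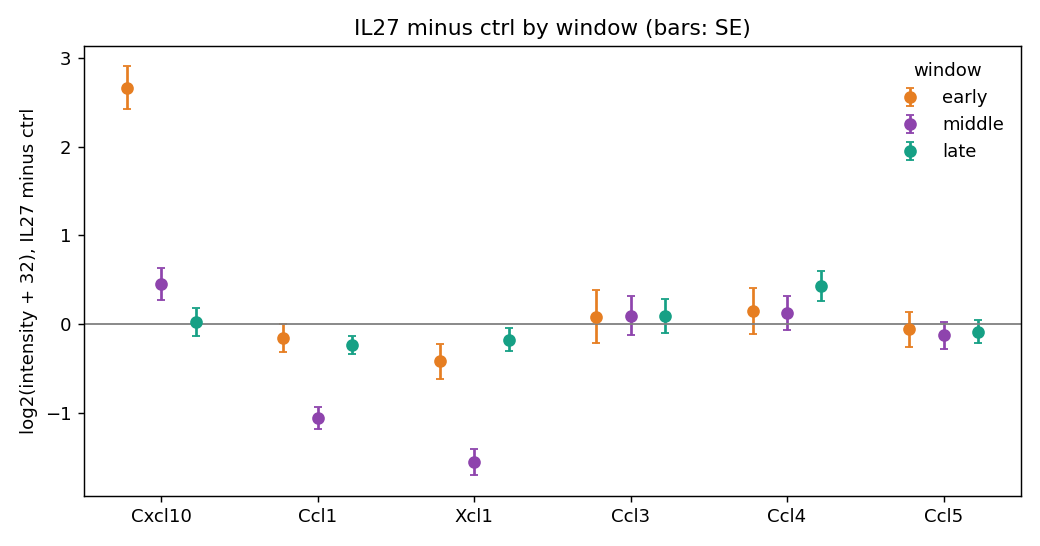
Difference between the arms in the early, middle and late window for each gene, as IL27 minus ctrl in log2(intensity + 32) units (bars: SE). Cxcl10 early (2.66), Ccl1 middle (-1.06) and Xcl1 middle (-1.56) are the called differences, and the remaining 15 lie between -0.42 and 0.45.

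Ccl5, or RANTES, had a course of its own, with a dip between an early and a late high. It ran from 90.2 to 292 with IL27 and from 107 to 284 in ctrl at 2 to 12 h (6 arrays each). At 14 to 42 h it ran from 29.7 to 72.3 with IL27 and from 36.4 to 74.0 in ctrl (12 arrays each). At 54 to 72 h it ran from 202 to 655 with IL27 and from 296 to 673 in ctrl (5 arrays each). In both arms every array of the dip lay below every array of the highs, a split of the course chosen after the values were seen and not tested. The planned windows cut across the dip, and their steps did not pass: -0.80 ± 0.53 with IL27 and -0.74 ± 0.52 in ctrl for middle minus early, and 0.59 ± 0.42 and 0.55 ± 0.41 for late minus middle.

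Ccl5 was not called at any of the 18 times or in any window. The differences of -0.06 ± 0.20, -0.13 ± 0.15 and -0.08 ± 0.13 had limma adjusted p = 1.00, 0.62 and 0.73. Their 95% intervals were -0.47 to 0.35, -0.43 to 0.18 and -0.35 to 0.18. At 72 h it read 372 and 655 with IL27 and 316 and 673 in ctrl, where the duplicates of an arm were farther apart than the arms.

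Among the 6 genes, Ccl1 and Xcl1 rose and fell together over the 52 HT_MG-430A arrays (Pearson r = 0.855), as did Ccl3 and Ccl4 (r = 0.843), while Ccl3 and Cxcl10 ran in opposite directions (r = -0.57). Within the IL27 and ctrl arms the values were 0.844 and 0.855 for Ccl1 with Xcl1, 0.863 and 0.828 for Ccl3 with Ccl4, and -0.78 and -0.37 for Ccl3 with Cxcl10. The arrays share a time course, so such values describe likeness of course only. The 3 genes most like each member among the 7163 were Oasl2 (0.943), Parp12 (0.913) and Irf7 (0.886) for Cxcl10. For Ccl1 they were Trmt1 (0.876), Zfp202 (0.876) and Nadk (0.866), and for Xcl1 Txnrd3 (0.886), Nus1 (0.863) and Tesk1 (0.858). For Ccl3 they were Psat1 (0.939), Cyb5b (0.934) and Yars (0.932), for Ccl4 Shmt2 (0.938), Iars (0.937) and Bcat1 (0.922), and for Ccl5 Basp1 (0.819), Prnp (0.815) and Sdf2 (0.803).

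Of 29 other chemokine ligands looked up, 27 had a named probe set and 4 passed the filter on low values. In the early window 0 of these 4 were called, where 2.32% of all genes were. In the middle window 1 was lower with IL27, where 10.7% of all genes were called. It was Ccl25, a ligand of CCR9, at 40.1 with IL27 and 54.1 in ctrl (-0.24 ± 0.06, limma adjusted p = 0.0082). Late, 1 was higher with IL27, where 18.5% of all genes were called. It was Ccl20, the ligand of CCR6, at 50.2 with IL27 and 26.9 in ctrl (0.33 ± 0.11, limma adjusted p = 0.034). Its early, middle and late ctrl means (24.6, 25.1 and 26.9) lay under the array medians, so it may have passed the filter through IL27 arrays. Cxcl9, another interferon-inducible CXCR3 ligand, averaged 23.3 with IL27 and 17.3 in ctrl early (0.13 ± 0.09, not called). The medians of the 4 differences were 0.03, -0.07 and -0.03 in the early, middle and late windows, beside -0.03, -0.02 and -0.01 over all genes tested.

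Of 22 chemokine receptors, 20 had a named probe set and 7 passed the filter. In the early and middle windows 0 were called, where 2.32% and 10.7% of all genes were. Cxcr3, the receptor of CXCL10, averaged 87.7, 76.9 and 137 with IL27 and 122, 104 and 99.1 in ctrl, with differences of -0.32 ± 0.22, -0.27 ± 0.17 and 0.33 ± 0.14 (limma adjusted p = 0.69, 0.31 and 0.11). Ccr8, the receptor of CCL1, was lower with IL27 late, at 33.9 with IL27 and 74.9 in ctrl (-0.67 ± 0.13, adjusted p = 0.00011). In the middle window its difference was 0.03 ± 0.15 (not called). Ccr1, Ccr3 and Xcr1 had means between 8.55 and 11.7 in every window and arm and did not pass the filter.

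Late, 4 of the 7 tested receptors were called, where 18.5% of all genes were. Ccr6, the receptor of CCL20 and a gene known from Th17 cells, had the largest difference of the 7, at 11.1 with IL27 and 111 in ctrl (-1.65 ± 0.11, limma adjusted p = 8.8e-15). Its early, middle and late means with IL27 (13.5, 13.3 and 11.1) lay under the array medians. The filter counts arrays of both arms, so a gene bright in ctrl only can enter the test through the arm where it is high. Ccr7, which guides naive T cells to lymph nodes, averaged 2592 with IL27 and 3330 in ctrl (-0.31 ± 0.10, adjusted p = 0.027). Cxcr5, the B cell follicle homing receptor, was higher with IL27, at 66.5 against 47.4 in ctrl (0.27 ± 0.10, adjusted p = 0.049). The medians of the 7 receptor differences were -0.31, -0.10 and -0.03 in the 3 windows, beside -0.03, -0.02 and -0.01 over all genes tested.

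The Mouse430A_2 arrays gave a look at the same genes on a second array type, normalized apart (array medians 70.7 to 78.9). At 0 h, before stimulation by its time label, Ccl3 and Ccl4 read 25.8 and 25.4, Cxcl10 25.4, Ccl1 24.7 and Xcl1 58.9, whereas Ccl5 read 227. Of the 6 genes only Ccl5 was therefore above the range of array medians at 0 h. Cxcl10 read 1939 with IL27 and 792 in ctrl at 4 h, 40.6 and 24.9 at 16 h, and 29.6 and 28.5 at 48 h. Xcl1 read 164 with IL27 and 371 in ctrl at 4 h and 62.6 and 87.3 at 16 h. Ccl1 read 26.8 with IL27 and 94.3 in ctrl at 4 h and 42.3 and 85.2 at 16 h. The directions at 4 and 16 h were those of the HT_MG-430A arrays for these 3 genes, on 1 array per arm and time.

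Ccl3 read 246 with IL27 and 326 in ctrl at 4 h, 404 and 714 at 16 h, and 2886 and 3570 at 48 h. Ccl4 read 463 and 456 at 4 h, 680 and 730 at 16 h, and 1797 and 1414 at 48 h, IL27 before ctrl. Ccl5 was again lowest at 16 h, at 109 with IL27 and 129 in ctrl at 4 h, 44.4 and 34.6 at 16 h, and 296 and 363 at 48 h. Of the 6 genes only Ccl3 and Ccl4 passed the filter on these arrays, and with time as a factor their differences were -0.48 ± 0.14 and 0.09 ± 0.14. Neither was called, in a fit with 6 arrays that called 0 of 6055 genes (0%, with 436 at an unadjusted limma p under 0.05). Ccl3 was lower with IL27 at all 3 times here, while on HT_MG-430A it was lower at 8 of 18 times. With no filter, added after the data were seen, the differences were 0.54 ± 0.25 for Cxcl10, -0.59 ± 0.20 for Ccl1 and -0.44 ± 0.22 for Xcl1, and 0 of 12291 genes were called.

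The GFPP and GFPN arrays at 48 h differed in Ccl5, Ccl3 and Ccl4. Ccl5 read 1444 on the GFPP array and 609 on the GFPN array, a ratio of 2.37. Ccl3 read 3411 and 1796 (1.90) and Ccl4 3285 and 1931 (1.70), GFPP before GFPN. On the log2 scale these were differences of 1.20, 0.91 and 0.76, where 90% of the 6612 genes above the median on either array lay between -0.20 and 0.25 and 44 genes exceeded 0.5. Cxcl10 (29.3 and 32.8), Ccl1 (17.3 and 20.3) and Xcl1 (36.5 and 44.0) were under the array medians on both. With 1 array each there is no replicate check of these differences and no test.

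**Figure D5:**
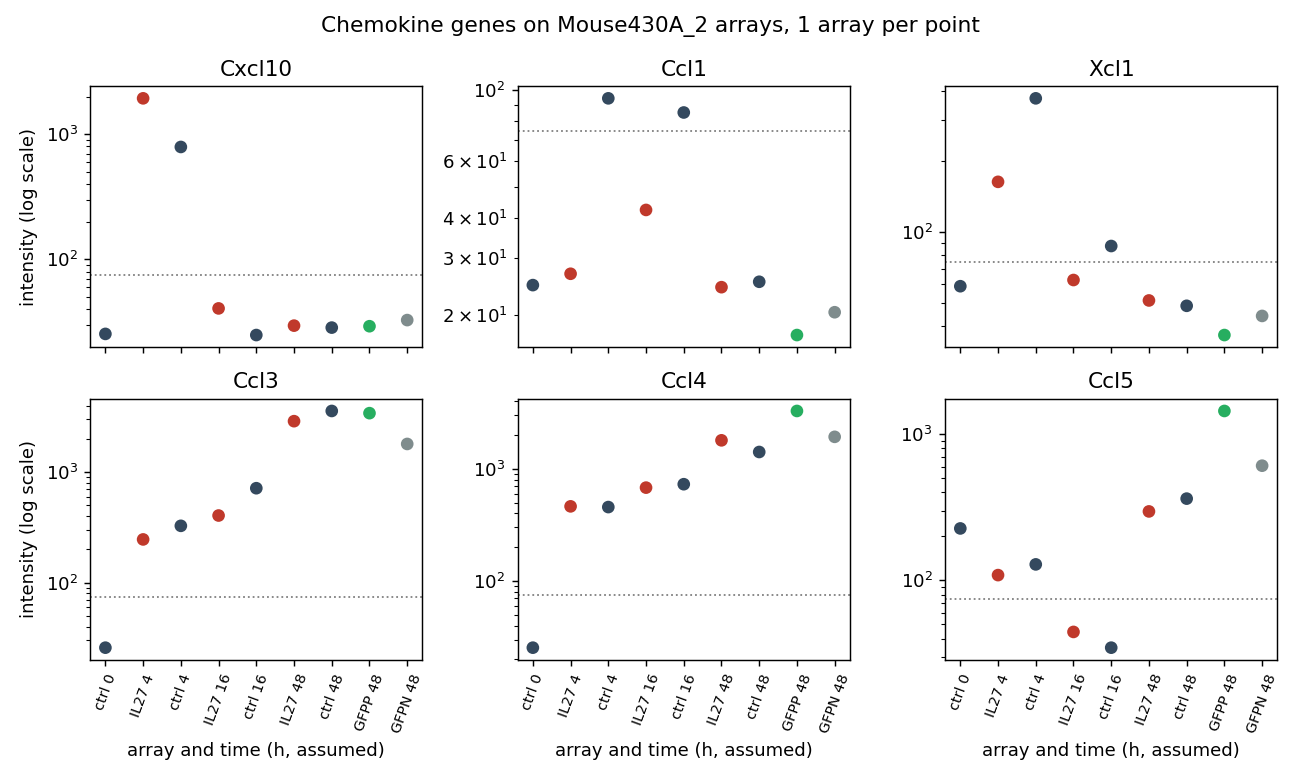
Intensity (log scale) of each gene on the 9 Mouse430A_2 arrays, 1 array per point, IL27 in red, ctrl in dark blue, GFPP in green and GFPN in grey, with a dotted line at the median of the array medians. Ccl3, Ccl4 and Ccl5 are higher on the GFPP array (3411, 3285 and 1444) than on the GFPN array (1796, 1931 and 609), and Cxcl10 is bright only at 4 h, at 1939 with IL27 and 792 in ctrl.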

How the data were processed

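The deposited tables give linear intensities of 22626 probe sets, with a table for each array type. MAS5 is named in the submitters' processing notes, without version or settings. Array medians of one type were alike, so the authors' deposited intensities were taken as normalized per array type and the types were tested apart. Of the probe sets, 20173 had 1 gene and were used, 942 had several and 1511 had none, and each gene was read by its brightest probe set. No array pair had identical values.

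Tests used limma 3.58.1 under R 4.3.3 on log2 values after adding 32 to each intensity (eBayes with an intensity trend, Benjamini-Hochberg adjustment over all genes). Genes entered a fit when 5 or more arrays showed them brighter than the array median, which left 7163 genes on HT_MG-430A and 6055 on Mouse430A_2. In the window model, each time had its own level and each window its own IL27 term. Single times had a mean per arm and time, with the spread from the 8 duplicated times, so that a lone array is assumed to vary like the duplicates. Window steps within an arm were fitted on its 26 arrays with no term for time, so their spread holds the course inside a window. Tested on simulated late differences in 7163 genes, the window model found 94% of those of size 0.5 and 100% of those of size 1, with 11 unchanged genes called. The simulated noise was independent between arrays, with no outlying array and no difference that varied between times. These shares can therefore be too high for the measured genes. They are not the power for a given member, as the late SE was 0.19 for Ccl3 and 0.17 for Ccl4. The number of arrays limits the precision.

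The members, receptor, ligand and marker lists were chosen with earlier results of these data known. The text names all members, for each the 3 genes with the highest Pearson r over 52 arrays, every listed ligand or receptor called in a window, and the members' receptors. Cxcl9 was named after its values were seen. Longer promoter motifs (the interferon-stimulated response element and the NF-kappaB site) were also searched. Both matched in the Cxcl10 window and the NF-kappaB site in the Ccl1 window, and their positions and shares are not reported here. Alternatives were other pseudocounts, filters, normalization, probe set summary, a block for the title suffix, and leaving out times or arrays.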

Additional observations from a re-analysis of the deposited data

Results flagged for a closer look

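For 3 of the chemokine genes the difference between the arms was itself different in 2 windows, by the contrast of the windows in the limma fit. For Cxcl10, late minus early was -2.64 ± 0.29 (adjusted p = 9.0e-08), from an early difference of 2.66 and a late one of 0.02. For Ccl1, late minus middle was 0.82 ± 0.16 (adjusted p = 0.00059), with differences of -1.06 in the middle and -0.24 in the late window. For Xcl1, late minus middle was 1.38 ± 0.20 (adjusted p = 1.0e-05), with differences of -1.56 and -0.18. These contrasts were called under every alternative run, with ranges of -3.28 to -2.03 for Cxcl10, 0.62 to 0.93 for Ccl1 and 1.24 to 1.58 for Xcl1. The late levels of Cxcl10 lay under the array median on all 24 late arrays, and those of Ccl1 on 20 of 24. Late Xcl1 lay near it, above on 7 of 12 arrays with IL27 and 8 of 12 in ctrl. The late end of these contrasts is therefore set by dim values or, for Xcl1, by values near the median. For Cxcl10 and Ccl1 the contrasts do not by themselves show that an effect of IL27 was lost.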

How the results depend on the processing

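Over 56 results and 1396 alternative values, 1374 stayed on the same side of the threshold, and no called value changed sign. The called differences between the arms (Cxcl10 early, Ccl1 and Xcl1 middle) were called under every alternative, at 2.04 to 3.35, -1.39 to -0.73 and -1.71 to -1.34. With a pseudocount of 1, calls were gained for Cxcl10 in the middle window (0.78), Ccl1 late (-0.50) and Cxcl10 in ctrl for late minus middle (-1.19). As a mean of single-time contrasts, Cxcl10 middle (0.46) and Ccl1 late (-0.25) passed. Without the arrays of suffix d, Ccl3 in ctrl for late minus middle (0.98) and Xcl1 in the IL27 arm for middle minus early (1.10) no longer passed. Deviations of same-suffix arrays correlated above 0.1 at 7 of 8 times (up to 0.76), a hint of pairing, but not at 30 h (-0.01). The suffix was not counted as pairing the arrays, because that asked for a correlation over 0.1 at every time. With time and suffix as a replicate block (26 pairs), Ccl4 late passed (0.43, adjusted p = 0.043), and no other call between the arms in a window changed.

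Leaving out each time or the 12 h ctrl array in turn gave ranges of 0.41 to 0.50 for Cxcl10 middle (called without 2 h, 0.45, or 4 h, 0.45), -0.30 to -0.14 for Ccl1 late (called without 12 h, -0.24, or its ctrl array, -0.24) and 0.25 to 0.55 for Ccl4 late (called without 30 h, 0.55). In the same way Cxcl10 in ctrl ranged from -0.89 to -0.088 for middle minus early (called without 0.5 h, -0.88, or 1 h, -0.89) and from -0.77 to -0.57 for late minus middle (called without 4 h, -0.61). Xcl1 in the IL27 arm ranged from 0.71 to 1.67 for middle minus early (not called without 0.5, 1, 2, 8 or 16 h, at 0.88, 0.91, 1.04, 0.71 and 1.07). Ccl3 on Mouse430A_2 ranged from -0.57 to -0.34 (called without 48 h, -0.57). Causes were not tested.

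Counts over all genes moved more. Early calls numbered 166, and 57 without suffix d or 11 without 2 h. Middle calls numbered 764, and 439 without 16 h, 461 without 20 h or 1609 as a mean of single times. Late calls numbered 1325, and 883 without 54 h. Late minus early gave 508, and 261 without suffix d or 158 without 2 h, late minus middle 581, and 338 without suffix d, 371 without 16 h or 330 without 54 h, and the ctrl step from middle to late 3347, and 2200 without suffix d. On Mouse430A_2 there were 0, and 87 without 16 h or 211 without 48 h. Cxcl10 and Ccl1 were not among the genes above the median mean value, so that alternative gave them no value.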
